A study of Homo sapiens with 15 samples.

Results

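HCT8 is an established human ileocecal colorectal adenocarcinoma line, and the data described here are the CpG methylation of repetitive elements in its 5 bisulfite sequencing libraries, out of 15 libraries from 3 colorectal cancer lines. The 5 libraries were taken by the line and dose in their titles: a pair without 5-azacitidine (0 nM), a single one at 500 nM and a pair at 1000 nM, where the 2 libraries of a pair are technical replicates. No genotype or further treatment is given for the line. The length of drug exposure is not given in the sources used here, and neither is whether libraries of different doses came from separate cultures, so the spread between replicates is technical and the spread between cultures is unknown. The other lines, DLD1 and HCT116, had the same layout of 5 libraries each. For each of 834 named repeats the table gives the percent of its CpGs that were methylated, rounded to whole percents, and the number of reads behind a value is unknown.

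CpG methylation is copied to the new DNA strand after replication by DNA methyltransferases, chiefly DNMT1. Azacitidine is a cytidine analogue that enters nucleic acids and traps these enzymes on DNA, so that marks are diluted as cells divide. Repeats hold a large part of the methylated CpGs of a human genome: Alu and SVA elements, LINE-1 elements, the long terminal repeats of endogenous retroviruses and the tandem satellites of centromeres are methylated in most somatic tissues, and part of that methylation is lost in many colorectal tumours. Loss at retroviral and LINE-1 promoters is known for allowing their transcription, which is why repeats are a common readout of the drug.

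A named repeat could not be followed from one HCT8 library to another. Over the 10 pairs of HCT8 libraries, Pearson correlations across the 834 repeats lay between -0.048 and 0.020, the 2 pairs of technical replicates included. Repeats are listed by name, so related families stand next to each other, and the correlation between the values of neighbouring rows was 0.29 in replicate 1 of untreated DLD1. In the HCT8 libraries the same correlation lay between -0.06 and -0.003, and in the other 9 libraries of DLD1 and HCT116 between -0.034 and 0.083. That 1 DLD1 library is thus the exception of the series, and it is the reference used for the families of names. These are descriptions of 1 table, and the repeats are not independent samples.

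Apart from the satellites, families of near-identical names were tighter in replicate 1 of untreated DLD1 than in any HCT8 library. The 17 AluS names, the most numerous Alu subfamily group, had an SD of 1.63 points in replicate 1 of untreated DLD1, and of 7.81 to 22.8 points in the HCT8 libraries. For the 14 AluY names, the younger Alu elements, the SD was 4.11 points in that DLD1 library and 10.2 to 21.1 points in HCT8. The 8 young LINE-1 names (L1HS and L1PA2 to L1PA8) had an SD of 2.36 points there and of 5.79 to 25.9 points in HCT8, and the 6 SVA names of 3.78 points and of 9.16 to 21.2 points. The 10 satellite names were wide in both, with 16.7 points in DLD1 and 9.38 to 27.8 points in HCT8. The upper end of each HCT8 range was in the 500 nM library, whose SD over all repeats was 26.1 points. Some HCT8 families were tighter than their library: AluS had 7.81 against 15.8 points in untreated replicate 1. Young LINE-1 had 5.79 against 14.1 points in replicate 1 at 1000 nM. Others were not, as AluY with 17.6 against 16.7 points in untreated replicate 2.

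The deposited values of 18 fixed names, all found in the table, show what this means. L1HS, the human-specific LINE-1 family, was listed at 68% and 71% without drug, 0% at 500 nM and 39% and 25% at 1000 nM. AluY was listed at 95% and 57% without drug, 44% at 500 nM and 46% and 80% at 1000 nM. ALR/Alpha, the alpha satellite of centromeres, was listed at 79% and 26%, then 0%, then 56% and 63%. The spliceosomal RNA repeat U6 was listed at 20% and 85% in the untreated replicates, a gap of 65 points for the same DNA source. LTR12C, the long terminal repeat of a HERV-9 group, had close replicates, 75% and 73% without drug and 45% and 45% at 1000 nM. Over the 18 names the gap between untreated replicates ranged from 0 to 65 points with a median of 11 points, and at 1000 nM from 0 to 39 points with a median of 13 points. No change is read for any name, and the results that follow use only summaries that stay the same however the rows are ordered.

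Repeats of HCT8 were less methylated at 1000 nM than without drug from the 5th to the 95th percentile of the distribution, while both doses had some repeats at 0% and at 100%. The median repeat was at 71% in both untreated libraries and at 48% and 50% at 1000 nM, a difference of -22 points. Means were 68.0% and 68.7% without drug against 46.5% and 48.7% at 1000 nM, a difference of -20.7 points with replicate SDs of 0.456 and 1.55 points (n = 2 each). The treated and untreated libraries did not overlap in either summary, and the difference in means was many times the gap between replicates. With 2 libraries against 2, the exact two-sided permutation test gave p = 0.333, the smallest value its 6 arrangements allow, so this test cannot reach 0.05 for any difference between doses in HCT8. As the replicates are technical, a test with more power would still compare libraries and not cultures.

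Most repeats at 1000 nM lay below the range that most held without drug. The fullest bin of 5 points was 70% to 74% in both untreated libraries, with 158 and 145 repeats, and 45% to 49% (160 repeats) and 50% to 54% (144 repeats) at 1000 nM. The 75th percentile at 1000 nM, 55.0% and 58.8%, lay below the 20th percentile without drug, 60% in both libraries. A value drawn at random from an untreated library exceeded a value drawn from a 1000 nM library in 83.7% to 88.1% of draws over the 4 pairs of libraries, with ties counted equally to both sides. The same share was 48.4% between the untreated replicates and 44.9% between the treated ones. When the values were paired by row instead of drawn at random, the untreated value was higher in 84.0% to 88.3% of rows, so pairing by name added little to the random draw.

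**Figure D1:**
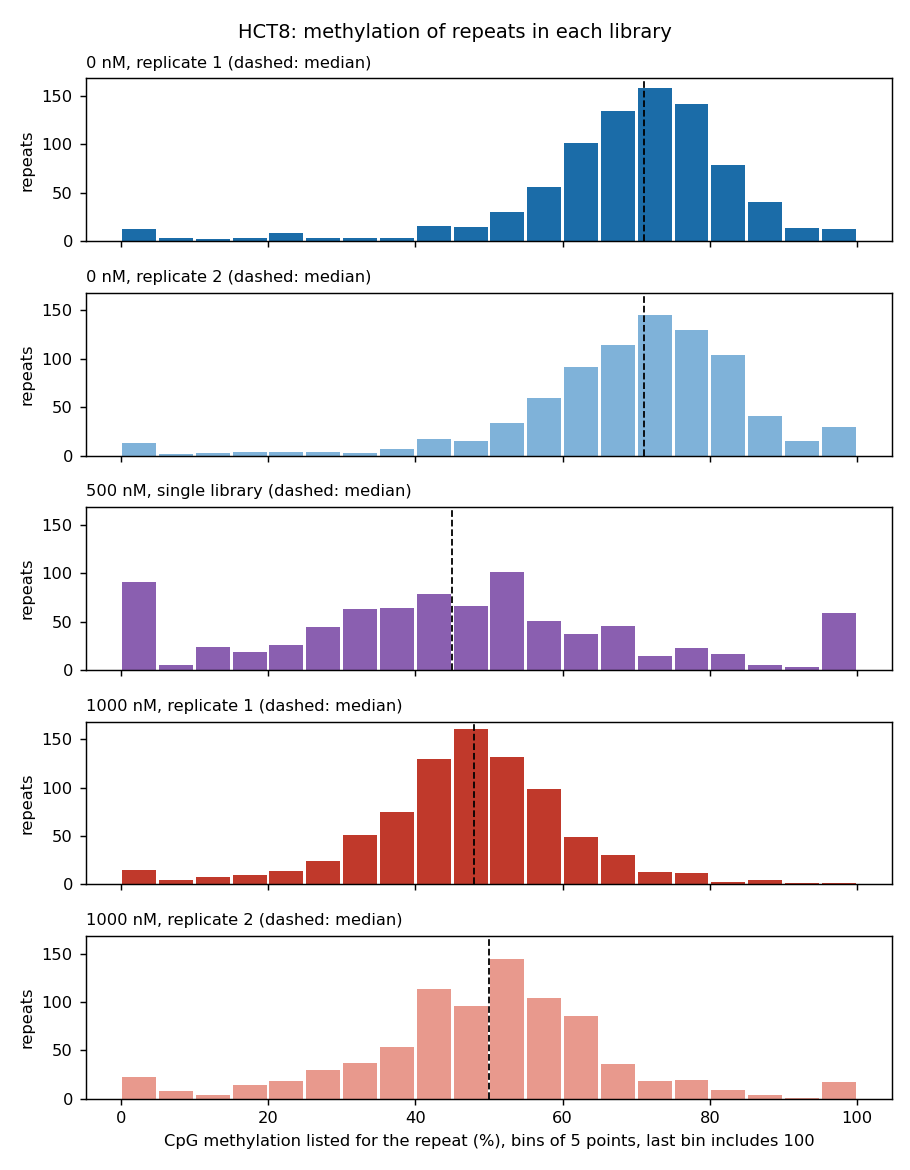
Number of repeats (vertical axis) in each bin of 5 percentage points of CpG methylation (horizontal axis), 1 panel for each HCT8 library, with the median as a dashed line. The fullest bin sits at 70% to 74% in both untreated libraries and at 45% to 49% and 50% to 54% at 1000 nM. The 500 nM library has a broad profile with its fullest bin at 50% to 54%, and separate heaps of 90 repeats at 0% and 59 at 100%.

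Highly methylated repeats were rare at 1000 nM. Without drug 430 and 442 of 834 repeats lay above 70% (51.6% and 53.0% of repeats), against 32 and 61 repeats at 1000 nM (3.84% and 7.31%). Above 80% there were 121 and 154 repeats without drug and 8 and 28 at 1000 nM. Only 27 and 56 repeats at 1000 nM, 3.24% and 6.71%, lay above the untreated median of 71%. Counts above 70% and above 80% did not overlap between the 2 doses.

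Lowly methylated repeats stayed a minority at 1000 nM. Repeats below 20% numbered 20 and 22 without drug and 37 and 49 at 1000 nM, and repeats below 10% numbered 15 and 15 against 19 and 31. At most 5.88% of repeats were below 20% in a library at these 2 doses, although 201 and 188 repeats lay below 40% at 1000 nM against 37 and 40 without drug. The share above 50% was 90.8% and 89.9% without drug and 37.3% and 48.1% at 1000 nM. The treated replicates were farther apart in this share than in the others, and 50% is close to their medians of 48% and 50%, with 33 and 36 repeats listed at exactly 50%.

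**Figure D2:**
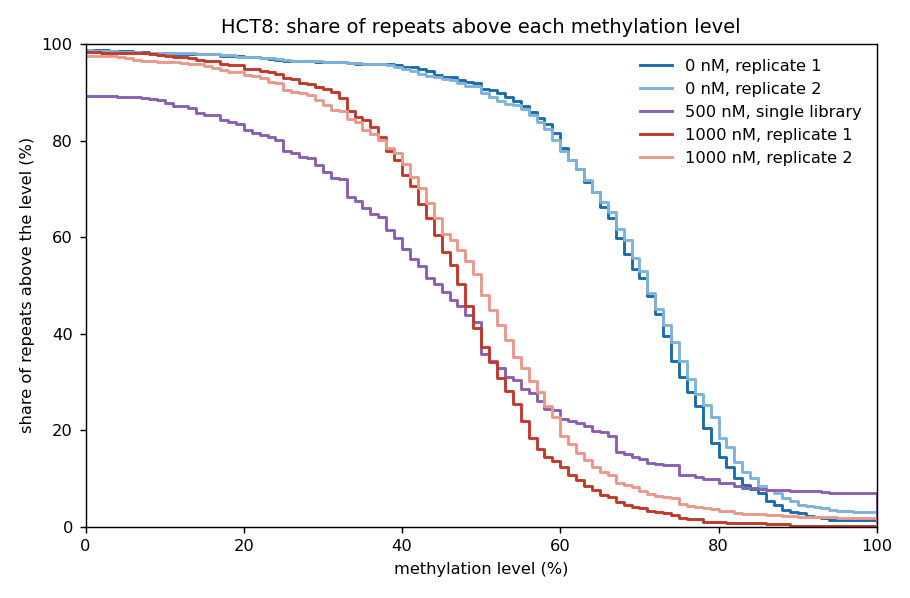
Share of the 834 repeats (vertical axis, percent) above each methylation level (horizontal axis, percent), 1 stepped line for each HCT8 library. The untreated lines lie together and above the 1000 nM lines over most levels, with crossings above 90%, and with 51.6% and 53.0% of repeats above 70% against 3.84% and 7.31%, and the 500 nM line crosses the 1000 nM lines, starting lower and ending higher.

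The shift at 1000 nM was close to the same number of percentage points over most of the distribution. Averaged over replicates, the 9 deciles were 19.5 to 22 points lower than without drug, a range of 2.5 points. The 10th percentile went from 51.2% to 29.5% (a difference of -21.7 points), the 30th from 64.0% to 42.5% (-21.5 points), the 70th from 76.5% to 55.0% (-21.5 points) and the 90th from 84.0% to 64.5% (-19.5 points). The evenness was partly a property of the average. Replicate 1 had its smallest difference at the 10th percentile (-19.2 points) and replicate 2 its largest there (-24.2 points), and the ranges over deciles were 4.35 and 7.15 points. The deciles of the treated replicates differed from each other by -5.0 to 5.0 points and those of the untreated replicates by -1.7 to 2.0 points, so unevenness of a few points is within the technical spread.

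As a ratio the shift climbed along the deciles. The level at 1000 nM over that without drug was 0.577 at the 10th percentile, 0.690 at the median and 0.768 at the 90th percentile, and it increased along the deciles in both treated replicates, from 0.626 to 0.738 in replicate 1 and from 0.528 to 0.798 in replicate 2. The share of methylation lost was therefore larger at the lower end of the distribution than at the upper end. Between the untreated replicates the ratio stayed between 0.967 and 1.02, and between the treated replicates between 0.844 and 1.08. Over the deciles the ratio spanned 0.112 in replicate 1 and 0.270 in replicate 2, against 0.237 between the treated replicates. The unevenness of replicate 1 is thus within the technical spread, and that of replicate 2 is only slightly beyond it. For the mean of replicates the ratio was 0.653 at the 25th and 0.729 at the 75th percentile, a smaller climb.

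On the logit scale, the log odds of methylation with 1 point added to both the methylated and unmethylated percent, the shift was again fairly even. It lay between -1.02 and -0.86 over the deciles for the mean of the replicates, between -1.13 and -0.78 in replicate 1 and between -1.02 and -0.84 in replicate 2. The direction of the remaining slope differed between replicates: the loss grew toward the 90th percentile in replicate 1 and was largest at the 10th percentile in replicate 2. Percentiles rank the repeats of each library anew, so an even shift of deciles does not show that single repeats lost equal amounts.

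**Figure D3:**
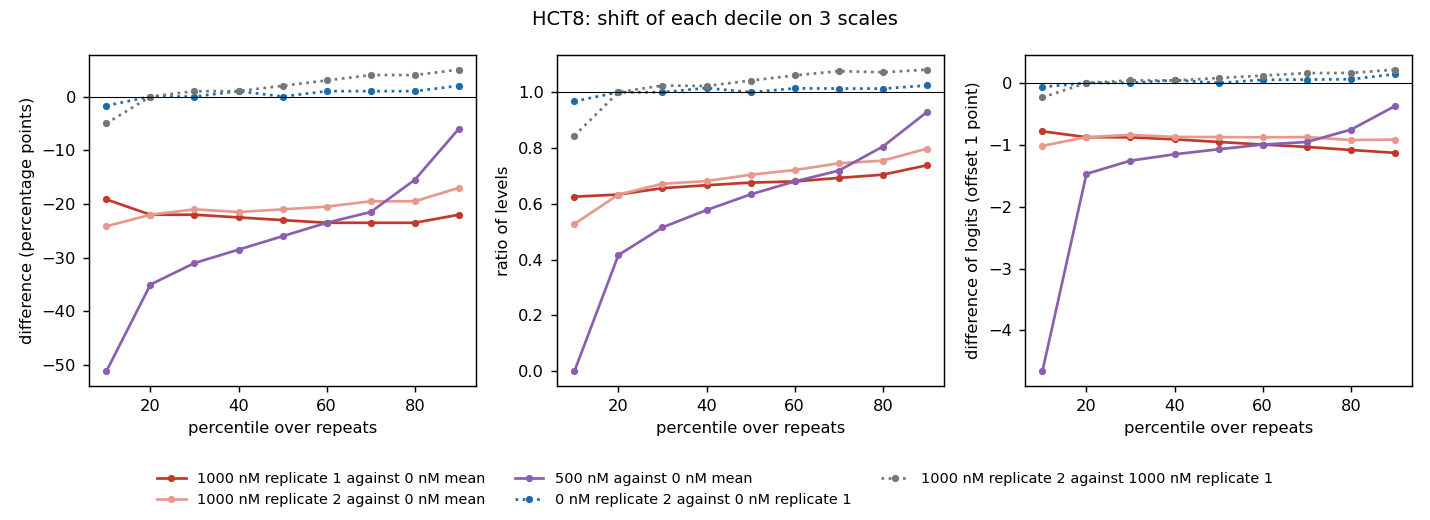
Difference from the untreated mean (left, percentage points), ratio to it (middle) and difference of logits (right, offset of 1 point) at the 9 deciles over repeats (horizontal axes) for each treated HCT8 library, with the replicate against replicate comparisons dotted. The 1000 nM lines are nearly flat on the left and right and climb in the middle from 0.626 and 0.528 to 0.738 and 0.798, while the 500 nM line runs from -51.2 to -6.0 points on the left.

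The 3 scales were then compared by moving the untreated distribution, the mean of the sorted values of its 2 libraries, by 1 parameter chosen to match the treated mean. Moved values were kept between 0% and 100%, so those that a constant difference took below 0% were set to 0%. For replicate 1 at 1000 nM, the mean absolute distance left to the observed sorted values was 1.36 points with a constant difference of -22.2 points, 2.22 points with a constant logit shift of -1.0 and 2.78 points with a constant ratio of 0.681. For replicate 2 it was 2.39, 1.05 and 4.93 points, with parameters of -20 points, -0.90 and 0.713. The constant ratio left the largest distance in both replicates. Which of the other scales came closer depended on the replicate. Replicates with matched means were 1.02 points apart without drug and 2.66 points apart at 1000 nM, so in replicate 1 the distance left by the ratio was also close to that between the treated replicates. Without values of 0% and 100%, an alternative chosen after seeing the data, the logit shift came closest in both replicates (1.62 and 0.680 points) and the ratio remained the farthest (2.96 and 4.07 points).

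The 3 shifts differ in the width they give the distribution. A constant ratio narrows the untreated spread, to SDs of 11.1 and 11.6 points, whereas the SDs observed at 1000 nM were 14.1 and 17.6 points. The constant difference gave 14.7 and 14.9 points and the logit shift 16.7 and 16.7 points. The constant ratio also put the 10th percentile at 34.8% and 36.5% and the 90th at 57.2% and 59.9%, against 32% and 27% and against 62% and 67% observed. Each shift was applied to the whole untreated spread, any technical part included. The observed SDs of 14.1 and 17.6 points came from technical replicates, so width also varied for technical reasons. How much of the spread was technical was not tested. The larger distance left by the constant ratio therefore does not show whether the loss itself was proportional.

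**Figure D4:**
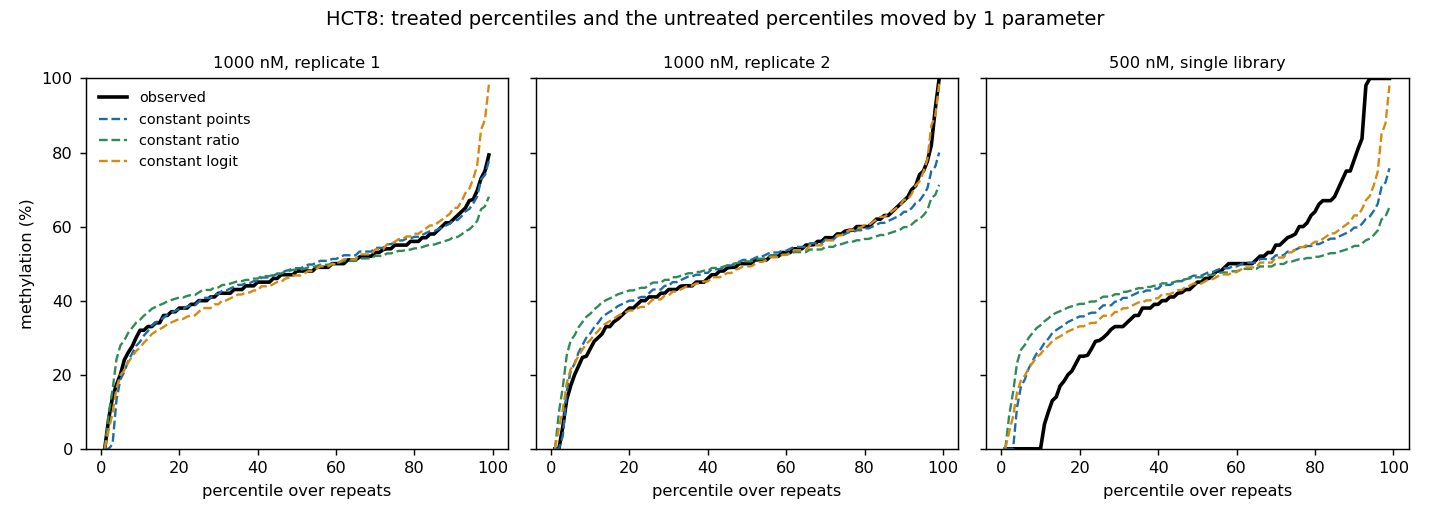
Methylation (vertical axis, percent) at each percentile over repeats (horizontal axis) in the 3 treated HCT8 libraries (black), with the untreated distribution moved by a constant difference, ratio or logit shift that matches the treated mean (dashed). The constant ratio is too flat at 1000 nM, with distances of 2.78 and 4.93 points, and none of the 3 follows the 500 nM library, where the distances are 9.68, 13.0 and 7.89 points.

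Spread over repeats did not separate 1000 nM from no drug. The SD was 15.8 and 16.7 points without drug and 14.1 and 17.6 points at 1000 nM, so the untreated values lay between the treated ones (exact permutation p = 1.0, n = 2 libraries each). Interquartile ranges were 15.0 and 17.0 points without drug and 15.0 and 17.8 points at 1000 nM. The asymmetry of the distribution did differ: skewness was -1.77 and -1.51 without drug, a long tail toward low methylation, and -0.51 and -0.19 at 1000 nM, with no overlap.

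Repeats listed at exactly 0% or 100% were few at both of these doses. They numbered 21 and 37 without drug and 15 and 36 at 1000 nM, or 2.52% and 4.44% against 1.8% and 4.32% of repeats. Those at 0% were 10 and 11 without drug and 14 and 20 at 1000 nM, and those at 100% were 11 and 26 without drug and 1 and 16 at 1000 nM, where the groups overlap. Leaving out both kinds of value gave means of 68.4% and 68.6% without drug and 47.2% and 48.9% at 1000 nM, and SDs of 13.6 and 14.0 points against 12.7 and 14.5 points.

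The single 500 nM library had a low centre and a far wider distribution than any other HCT8 library. Its median was 45% and its mean 44.6%, below all 4 other libraries. Its SD was 26.1 points and its interquartile range 28.8 points, against SDs of 14.1 to 17.6 points and interquartile ranges of 15.0 to 17.8 points in the other HCT8 libraries. Skewness was 0.21, the only positive value of the line. There is no replicate at this dose, so how far another library would differ is unknown.

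Its distance below the untreated levels shrank from the 20th percentile upward and had the opposite sign at the 95th. The 20th percentile was 25%, 35 points below the untreated mean of that percentile, the median 26 points below, the 80th percentile 64%, 15.5 points below, and the 90th percentile 78%, 6.0 points below. The 95th percentile was 100%, which is 11.5 points above the untreated mean of 88.5%. Compared with 1000 nM, it held more repeats both below 30% (209 against 75 and 97) and above 70% (117 against 32 and 61). At the 60th, 70th and 75th percentiles its levels of 50%, 55% and 58% lay within those of the 1000 nM replicates, and at the 40th percentile its 39% lay below their 45% and 46%.

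A large share of that library stood at whole fractions. It listed 90 repeats at 0% (10.8%) and 59 at 100% (7.07%), 149 in all or 17.9%, against 15 to 37 in the other HCT8 libraries. Further heaps stood at 50%, with 56 repeats between 12 at 49% and 11 at 51%, at 33%, with 30 repeats between 3 and 8, and at 75%, with 16 repeats between 0 and 1. Smaller heaps stood at 1000 nM as well: at 33%, replicate 1 listed 23 repeats between 10 and 10 and replicate 2 listed 14 between 2 and 4. At 50%, replicate 2 listed 36 repeats between 22 and 27, and replicate 1 listed 33 between 37 and 27. Small heaps stood without drug too: at 50%, replicate 1 listed 9 repeats between 2 and 3, and replicate 2 listed 12 between 0 and 7. At 67%, the untreated replicates listed 34 between 20 and 27 and 28 between 18 and 19. At 75%, untreated replicate 1 had no heap, with 29 between 42 and 25. Without values of 0% and 100%, 685 repeats were left at 500 nM, with a mean of 45.6%, an SD of 17.3 points and 10th and 90th percentiles of 23.0% and 68.0%. The SD was then still above the 12.7 to 14.5 points of the other HCT8 libraries. Read depth was not given, and its part in the width of this library was not tested.

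The order of the 2 doses depended on how the low values were treated. The mean at 1000 nM was 3.04 points above that at 500 nM, and the median 4.0 points above. When values under 20% were left out of each library, which removes 139 repeats at 500 nM and 37 and 49 at 1000 nM, the mean at 1000 nM was instead lower, with a difference of -2.72 points. No test of this order was made, since 500 nM has 1 library.

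In the mean, the relative loss and the share above 50%, the response of HCT8 to 1000 nM lay between those of DLD1 and HCT116. At 1000 nM the mean differed from that without drug by -21.5 and -19.95 points in HCT8 (libraries taken by replicate number), by -21.8 and -23.5 points in DLD1 and by -16.0 and -10.4 points in HCT116. As a share of the untreated mean the loss was 30.3% in HCT8, 37.6% in DLD1 and 18.1% in HCT116. The share of repeats above 50% differed by -47.7 points in HCT8, -63.4 points in DLD1 and -15.1 points in HCT116. For shares the order depended on the level. Above 60% the differences were -62.6, -49.5 and -38.7 points, the largest in HCT8. Above 70% they were -46.7, -23.1 and -47.4 points, the smallest in DLD1. A fixed level also meets different untreated means, 68.3% in HCT8, 60.3% in DLD1 and 72.9% in HCT116. The SD did not follow the order of the mean at 1000 nM, with -0.41 points in HCT8, 0.32 in DLD1 and 0.95 in HCT116. Nor did the mean at 500 nM, with -23.8, -23.2 and -18.2 points. HCT8 minus the mean of the other lines was -2.81 points for the mean, 2.48 points for the relative loss, -8.42 points for the share above 50% and -1.04 points for the SD. Leaving out single libraries brought the first 3 of these as near to 0 as -1.40 and 0.556 points (both without replicate 2 of HCT116 at 1000 nM) and -3.03 points (without replicate 1 of HCT8 at 1000 nM), and turned the SD to 0.703 points (without that same library). The SD difference was also positive without replicate 1 of HCT116 at 0 nM (0.138 points) and without its replicate 2 at 1000 nM (0.538 points). In an exact two-sided permutation of the 6 replicate differences, with 15 splits and a smallest possible p of 0.0667, these 4 summaries gave p = 0.733, 0.933, 0.733 and 0.333, each with a Benjamini-Hochberg adjusted value of 0.933. The permuted differences come from technical replicates paired by number, so the test cannot measure variation between lines. For the mean, the relative loss and the share above 50% it also pools lines on either side of HCT8. No conclusion about a difference between lines is drawn from it. Against HCT116 alone the difference in means was -7.57 points and against DLD1 alone 1.96 points, and neither was tested on its own.

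The even shift in points at 1000 nM was not shown to be particular to HCT8. The range of the shift over deciles, for means of replicates, was 2.5 points in HCT8, 4.35 points in DLD1 and 6.5 points in HCT116, but the technical replicates of HCT116 also differed most, with decile differences over a range of 20.3 points without drug and 22 points at 1000 nM. In DLD1 the ratio climbed from 0.412 to 0.735 over the deciles and in HCT116 from 0.724 to 0.893. The constant ratio left the largest distance for the mean of the sorted 1000 nM libraries in all 3 lines, at 3.84 points in HCT8, 5.20 points in DLD1 and 3.67 points in HCT116. An exception was replicate 1 of HCT116 taken alone, in which the ratio left 1.44 points and the logit shift 3.16 points. No test of a difference in shape between lines was made.

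The 500 nM library was wider in HCT8 than in the other lines. SDs at 500 nM were 26.1 points in HCT8, 18.5 points in DLD1 and 19.4 points in HCT116, and the shares at 0% or 100% were 17.9%, 8.27% and 6.35%. With 1 library per line these are 3 values without replicates, and the difference was not tested.

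**Figure D5:**
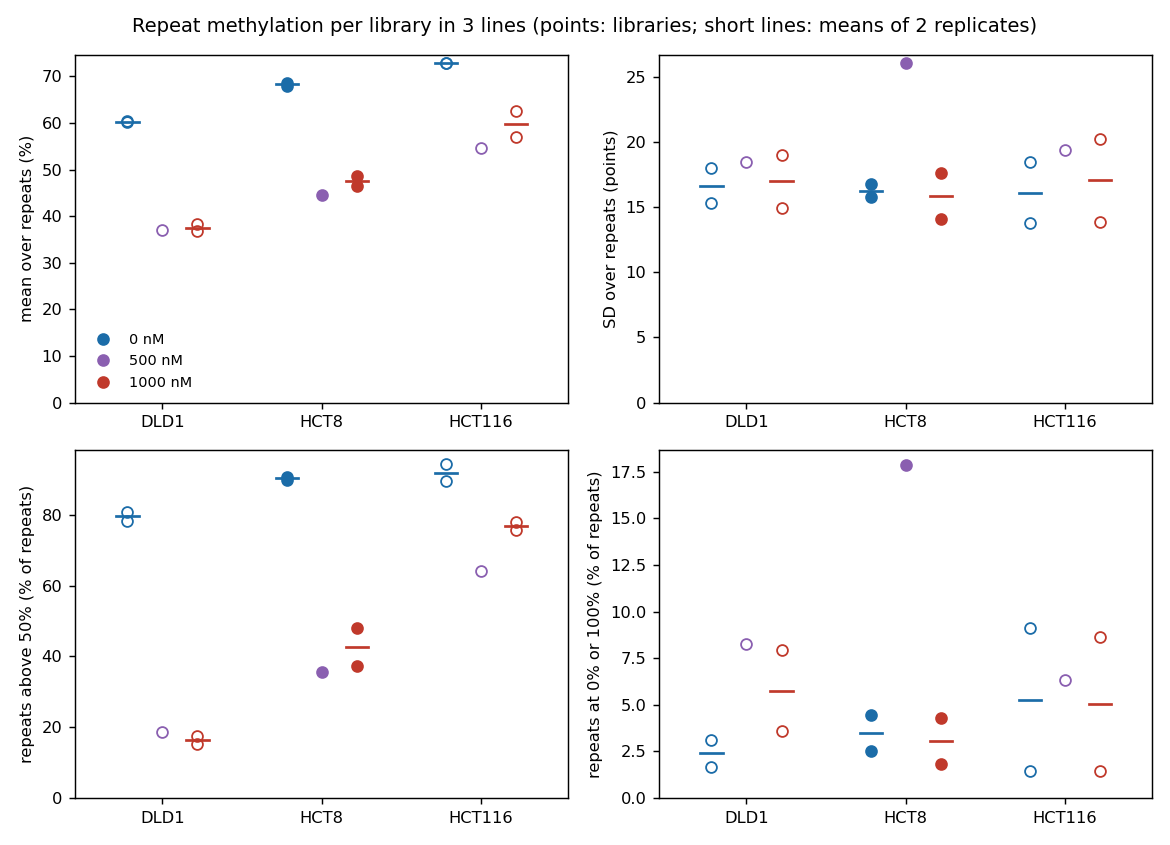
Mean over repeats (percent), SD over repeats (points), share of repeats above 50% and share at 0% or 100% (percent of repeats) for every library of DLD1, HCT8 (filled points) and HCT116 at 0, 500 and 1000 nM, with short lines for means of 2 replicates. HCT8 lies between the other lines in the treated means, and its 500 nM library stands apart with an SD of 26.1 points and 17.9% of repeats at 0% or 100%.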

How the data were processed

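Per the labels' protocols, DNA was bisulfite converted, made into EpiGnome libraries and sequenced on a MiSeq as paired reads of 75 bp; the labels also name total RNA as the molecule, which these protocols contradict. The submitters' processing notes name BSMAP 2.74, Picard 1.8.4 and hg19 without their roles. Per the file headers, the authors deposited percent CpG methylation per RepeatMasker repeat, as whole percents, 1 column for each library. The sources used here do not state coverage, filters or how reads were combined. Of 835 rows, 1 without a name (0.12%) was left out. Columns equal sample titles. Summaries were computed per library over 834 repeats and averaged over technical replicates. Dose groups were compared by exact permutation over libraries, and lines by exact permutation of replicate differences. Logits used an offset of 1 point. The 18 names and 5 lists of repeats (AluS, AluY, young LINE-1, SVA, satellites) were fixed whatever their values. Members and lists were chosen with earlier results of these data known. Alternatives were leaving out libraries or end values, other summaries, levels, percentiles and offsets. Python 3.11.15, numpy 2.4.6, pandas 2.3.3 and scipy 1.17.1 were used.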

Additional observations from a re-analysis of the deposited data

How the results depend on the processing

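Replicates are technical, depth is unknown and the exact permutation test within HCT8 cannot reach 0.05. Stability is therefore given as the size of the movement against a spread from replicates. For dose differences this combined the replicate SDs at 0 and 1000 nM, also where 500 nM was compared. For the shift along percentiles it was the SD over pairs of a treated and an untreated library. For lines it combined the SDs of replicate differences. Of 159 alternatives to 16 results, 139 stayed within that spread, and 14 of these changed the sign of a difference near 0, such as that in SD at 1000 nM. Leaving out 1 of 2 replicates always moves a dose difference of HCT8 by less than this spread, so those alternatives could not fall outside it. The 16 alternatives that moved and the 4 that reversed were all among the 73 that did not leave out a library. Leaving out single libraries gave the following ranges. Differences of 1000 minus 0 nM were -21.8 to -19.6 points for the mean, -2.16 to 1.34 for the SD, -1.68 to 0.839 for the share at 0% or 100% and -53.1 to -42.3 for the share above 50%. For 500 minus 0 nM they were -24.1 to -23.4, 9.33 to 10.3, 13.4 to 15.3 and -55.0 to -54.2 points, and for the mean of 1000 minus 500 nM 1.95 to 4.14 points. The shift at the 10th minus that at the 90th percentile was -7.15 to 2.85 points, -0.270 to -0.112 as a ratio and -0.10 to 0.35 on the logit scale. HCT8 minus the other lines was -4.21 to -1.40 points for the mean, 0.556 to 4.41 for the relative loss, -2.79 to 0.703 for the SD and -13.8 to -3.03 for the share above 50%.

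Larger movements came with other summaries, and their cause was not tested. The mean at 500 minus 0 nM (-23.8 points) was -17.4 without values under 20%, -26.0 as a median and -26.3 trimmed. For 1000 minus 500 nM, 3.04 became -2.72 without values under 20%. The share above 50% became -21.1 above 40% and -62.6 above 60% at 1000 nM, and -37.6 above 40% and -38.2 above 70% at 500 nM, where it was -54.6. The SD at 500 minus 0 nM (9.80) was 3.53 without 0% and 100% and 12.8 as an interquartile range, and the share at 0% or 100% (14.4) split into 9.53 at 0% and 4.86 at 100%. The ratio at the 10th minus the 90th percentile (-0.191) was -0.353 for the 5th and 95th and -0.076 for the 25th and 75th. HCT8 minus DLD1 alone gave 1.96 for the mean, -7.31 for the relative loss and 15.7 for the share above 50%, and minus HCT116 alone -7.57, 12.3 and -32.6. A replicate block, pairing libraries by number, left the mean at 1000 minus 0 nM at -20.7 points; the labels tie the numbers to nothing shared. Keeping the row without a name, added after seeing the data, moved nothing beyond the spread.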

Other observations

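The library numbered 2 had the wider distribution in each of the 6 pairs of technical replicates of the series. In HCT8 its SD was 16.7 against 15.8 points without drug and 17.6 against 14.1 points at 1000 nM. Over the 3 lines the SDs ranged from 13.7 to 15.8 points in libraries numbered 1 and from 16.7 to 20.2 points in those numbered 2, without overlap. Libraries numbered 2 also held more repeats at 0% or 100% in 6 of 6 pairs, 37 against 21 and 36 against 15 in HCT8. The labels do not say what the number stands for. Taken by number, the SD in HCT8 at 1000 nM differed from that without drug by -1.69 points in libraries numbered 1 and by 0.86 points in those numbered 2.

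The HCT8 libraries shared few rows at 0% or 100%. Since rows did not correlate between libraries and unrelated rows would also share few, these shared counts say nothing about single repeats. The untreated replicates, with 21 and 37 such repeats, shared 2, where unrelated rows would share 0.932, and the 1000 nM replicates, with 15 and 36, shared 0, where unrelated rows would share 0.647. The 500 nM library, with 149, shared 3 and 3 with the untreated replicates, against 3.75 and 6.61 for unrelated rows, and 3 and 6 with the 1000 nM replicates, against 2.68 and 6.43.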
